A study of Tribolium castaneum with 2 samples.

Results

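Antimicrobial peptides are small secreted proteins of the humoral defence of insects, made largely in the fat body and released into the hemolymph. In *Drosophila* and in *T. castaneum* their genes are switched on through the Toll and IMD pathways after infection. Attacins are glycine-rich peptides known mainly for acting on Gram-negative bacteria, and insect defensins are cysteine-rich peptides known mainly for acting on Gram-positive bacteria. The 8 genes described here are TC000500 and TC030482, which the annotation in the study's list of changed genes calls antimicrobial peptides, the attacins TC007737, TC007738 and TC007739, and the defensins TC006250, TC010517 and TC012469. All 8 are among the 17070 reference genes of the deposited files, and an assembled transcript was counted with a gene when it shared exonic bases with it on its strand. The files carry identifiers only, so the family names attacin and defensin come with the gene list and were not checked against a sequence.

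RNA came from wild type *T. castaneum*, the red flour beetle, as last-instar larvae 20 days from oviposition, after 12 h in a premixed gas of 2% O2, 18% CO2 and 80% N2 (hypoxia), or after 12 h in air that diffused through a cotton plug (normoxia). Larvae of both conditions were kept 20 to a bottle on whole-grain flour with yeast, and samples were pooled within each condition, which left 1 poly(A) library for each. The sample titles name the libraries only TC2 and TC1, and the study's legend to its volcano plot gives TC2 as hypoxia and TC1 as control. The low O2 and the high CO2 of the gas cannot be told apart, and no gene was tested across larvae because there is no replicate. The sources name no dissected tissue, and in such bulk samples fewer cells of a type and less RNA per cell cannot be told apart.

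The deposited values are FPKM, mapped fragments of a transcript relative to transcript length and to library size, each with an interval that covers counting and assignment of fragments within the library only. FPKM was summed over the transcripts of a gene. A gene was called higher or lower under hypoxia where both values differed at least 1.5-fold and their intervals did not overlap. Of the 17070 genes, 9725 had a mean of at least 1 FPKM, and 5134 were listed at 0 in both libraries. The FPKM of all transcripts summed to about 1265260 in hypoxia and 1341650 in normoxia. Over transcripts of at least 5 FPKM, the median coverage per FPKM was 2.00 in hypoxia and 1.78 in normoxia, a ratio of 1.13.

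Of the 8 genes, 6 were called higher under hypoxia, none lower, and 2 were listed at 0 in both libraries. Of all genes above the filter, 7.42% were called higher and 11.9% lower. Among the 1922 genes whose mean was at least that of the lowest of the 6, 9.68% were called higher and 8.12% lower. Among genes above the filter with a reference transcript of up to 500 bases, the length class of the 8, these shares were 9.58% and 10.4%. The median log2 ratio of hypoxia over normoxia, taken after adding 0.1 FPKM to both values, was 0.99 over the 6 genes and -0.10 over all genes above the filter. All 6 stand in the study's list of changed genes, which was chosen on these libraries, 2 of them as antimicrobial peptides and 4 as uncharacterized proteins. The count is therefore no independent evidence of a direction.

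The count of 6 depended on the size of the change that was asked for. At 2-fold with separate intervals 3 of the 6 were called higher, namely TC030482, TC007737 and TC010517, beside 4.44% of all genes above the filter. All 6 were called at 1.5-fold without regard to the intervals, where 11.2% of genes were called higher and 18.6% lower, and at a minimum mean of 5 FPKM, where 7.84% were called higher. Neither rule could lower the count. The first is looser than the main rule, and the lowest mean of the 6 was 77.8 FPKM. After the median log2 ratio of all genes was set to 0, a shift of 0.10, the 6 were called higher beside 9.21% of genes called higher and 9.75% lower. This shift raises every ratio, so it could not lower the count either.

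**Figure D1:**
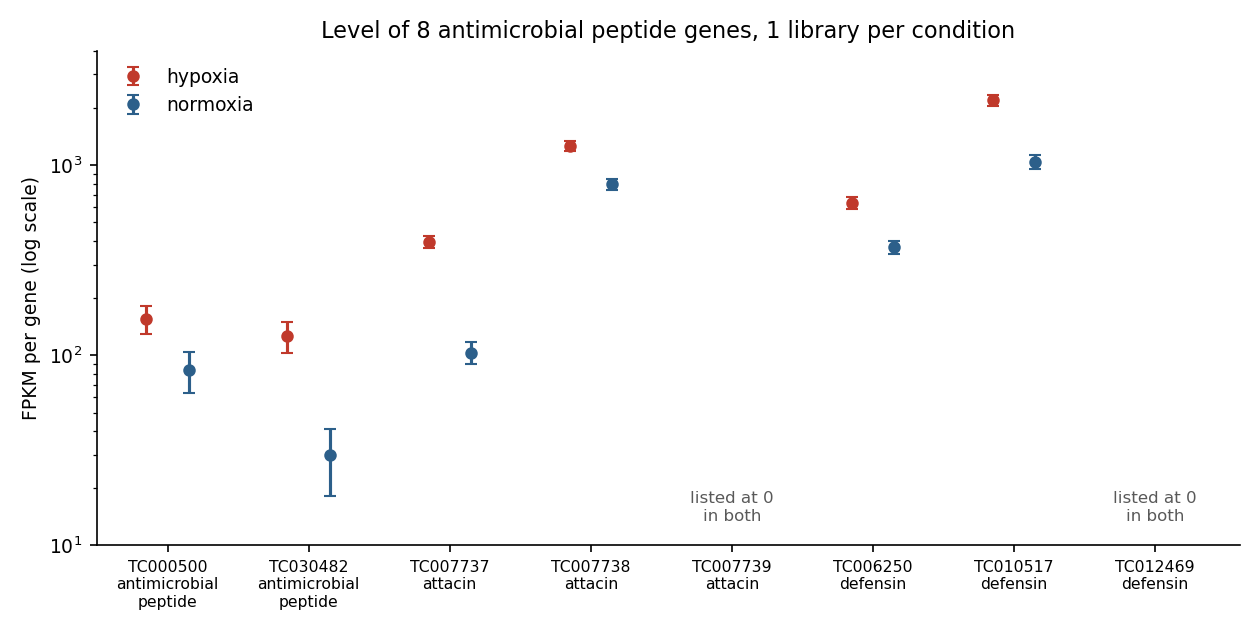
Summed FPKM of the 8 genes on a log scale, in the hypoxia library (red, left) and the normoxia library (blue, right), with the interval given in the files for each value. The intervals of both libraries are separate for each of the 6 genes with values, and TC007739 and TC012469 are listed at 0 in both.

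Of the 3 attacins, TC007738 was the most abundant and TC007737 had the larger change. TC007738 (ChLG4, 89071 to 89556, minus strand) was at 1263 FPKM (1193 to 1333) in hypoxia, against 792 FPKM (742 to 843) in normoxia. This is a 1.59-fold difference and a log2 ratio of 0.67 (0.55 to 0.79, 2 standard errors to either side), the smallest of the 6 genes and the closest to the threshold of 1.5-fold. TC007737 (ChLG4, 100352 to 100901, minus strand) was at 395 FPKM (367 to 424) in hypoxia, against 103 FPKM (90.0 to 117) in normoxia, a 3.83-fold difference and a log2 ratio of 1.93 (1.72 to 2.15). The ranges of both log2 ratios are separate, so these neighbours changed by unequal amounts within what the intervals cover. In hypoxia TC007738 had 3.19 times the FPKM of TC007737, against 7.66 times in normoxia. TC007739 (ChLG4, 85098 to 85589, minus strand) was listed at 0 in both libraries and had no assembled transcript. A value listed as 0 can also come from an estimate that failed, and how fragments that fit more than one copy of a gene family were assigned is not given in the sources used here, so the split of values between the attacins is uncertain.

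Of the 3 defensins, TC010517 and TC006250 were higher under hypoxia and TC012469 had no value above 0. TC010517 (ChLG3, 17879308 to 17879596, minus strand) had the highest level of all 8 genes in both libraries, with 2199 FPKM (2056 to 2343) in hypoxia against 1043 FPKM (950 to 1136) in normoxia. Its difference was 2.11-fold, a log2 ratio of 1.08 (0.92 to 1.24), and it ranked 103 of 17070 genes by FPKM in hypoxia and 224 in normoxia. TC006250 (ChLG8, 6364232 to 6364679, plus strand) was at 633 FPKM (589 to 678) in hypoxia, against 371 FPKM (342 to 400) in normoxia, a log2 ratio of 0.77 (0.62 to 0.92). The ranges of these log2 ratios overlap only at their ends, both at 0.92. TC012469 (ChLG9, 11287090 to 11287395, plus strand) was listed at 0 in both libraries, while TC012468, which ends 377 bases before it on the same strand, was at 12.4 FPKM in hypoxia and 15.8 FPKM in normoxia.

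TC010517 was the only one of the 8 genes with an assembled transcript beside the reference transcript. The reference transcript has 2 exons with an intron of 49 bases, and the assembled one is a single exon that runs through this intron and covers all 240 bases of the reference exons. The spliced form was at 1990 FPKM (1849 to 2130) in hypoxia, against 924 FPKM (834 to 1013) in normoxia, a log2 ratio of 1.11 (0.93 to 1.28). The single-exon form was at 210 FPKM (181 to 238) in hypoxia, against 119 FPKM (96.5 to 142) in normoxia, a log2 ratio of 0.81 (0.48 to 1.15). The single-exon form held 9.53% of the FPKM of the gene in hypoxia and 11.4% in normoxia. Both forms were higher under hypoxia, and the ranges of their log2 ratios overlap. What kind of molecule the single-exon form stands for was not tested.

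The genes annotated as antimicrobial peptides, TC000500 and TC030482, lie 462 bases apart on the minus strand of ChLG2. TC030482 (12902067 to 12902406) was at 126 FPKM (102 to 149) in hypoxia, against 29.7 FPKM (18.3 to 41.2) in normoxia. It had the largest ratio of the 8 genes, 4.23-fold, with a log2 ratio of 2.08 and the widest range, 1.46 to 2.69. TC000500 (12901274 to 12901604) was at 155 FPKM (129 to 181) in hypoxia, against 83.4 FPKM (63.1 to 104) in normoxia, a 1.86-fold difference and a log2 ratio of 0.89 (0.47 to 1.32). In normoxia the interval of TC000500 lies above that of TC030482, while in hypoxia both intervals overlap. TC000500 had 1.23 times the FPKM of TC030482 in hypoxia, against 2.81 times in normoxia.

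**Figure D2:**
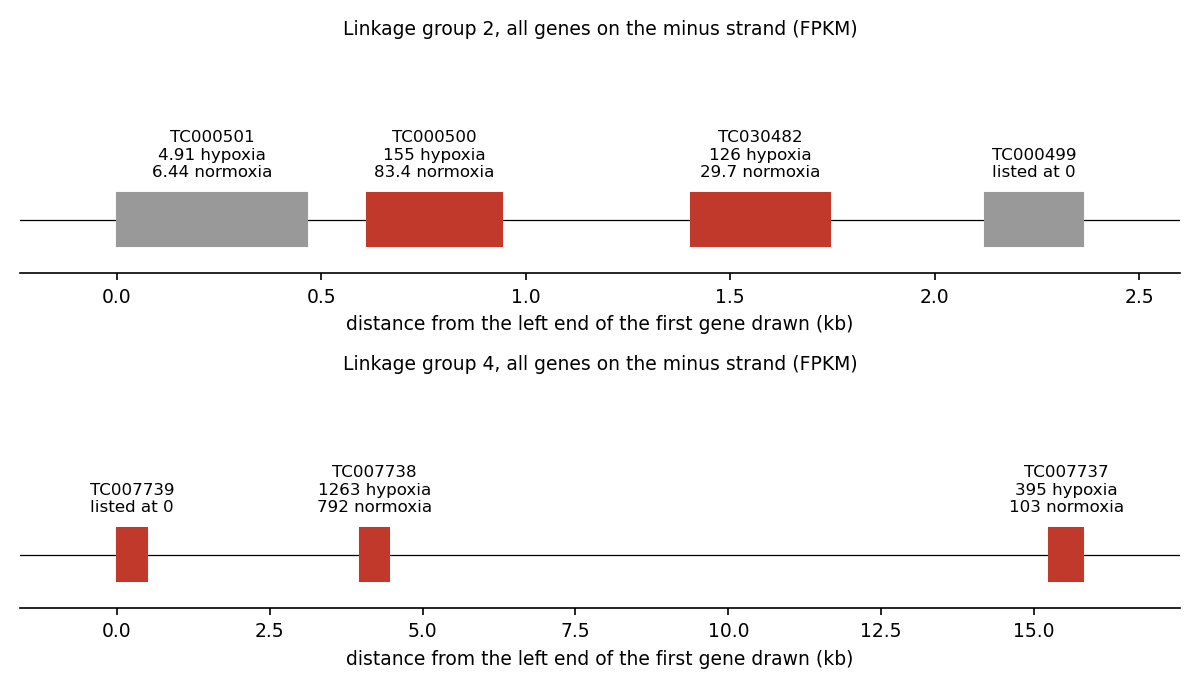
Place of TC000500 and TC030482 with the genes beside them (upper map) and of the 3 attacins (lower map), drawn to scale in kb from the left end of the first gene, with the FPKM of each gene in hypoxia and in normoxia. The antimicrobial peptide genes are in red and other reference genes in grey. In each map the gene with the lower FPKM of the 2 red genes with values has the larger ratio.

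The precision differed between the genes. The interval of TC030482 in normoxia has the width that counting error would give about 26.9 fragments, and that of TC000500 has the width for 67.9 fragments. In hypoxia these numbers were 116 for TC030482 and 142 for TC000500. For the attacins and defensins with values they ran from 762 to 1307 in hypoxia and from 237 to 973 in normoxia. The change of TC030482 thus rests on the fewest fragments, and its log2 ratio cannot be set apart from that of TC007737 by these ranges.

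The order of the 6 levels was the same in both libraries, TC010517, TC007738, TC006250, TC007737, TC000500 and TC030482 from high to low. In hypoxia the intervals of neighbours in this order were separate but for TC000500 and TC030482, and in normoxia they were separate but for TC007737 and TC000500. The order of the log2 ratios was another one, TC030482, TC007737, TC010517, TC000500, TC006250 and TC007738. Of the 15 pairs of genes, the ranges of the log2 ratios were separate for 9 and overlapped for 6, and of neighbours in this order only TC007737 and TC010517 were separate. Summed over the 8 genes, FPKM was 4772 (4601 to 4944) in hypoxia, against 2423 (2310 to 2536) in normoxia, a 1.97-fold difference. This is 0.377% of the FPKM of all transcripts in hypoxia and 0.181% in normoxia. TC010517 and TC007738 held 72.6% of the sum in hypoxia and 75.7% in normoxia, and TC010517 alone made up 49.2% of the difference. By family, the sum for the defensins was 2833 FPKM in hypoxia and 1414 FPKM in normoxia, that for the attacins 1659 and 896 FPKM in hypoxia and normoxia, and that for the annotated antimicrobial peptides 281 and 113 FPKM.

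**Figure D3:**
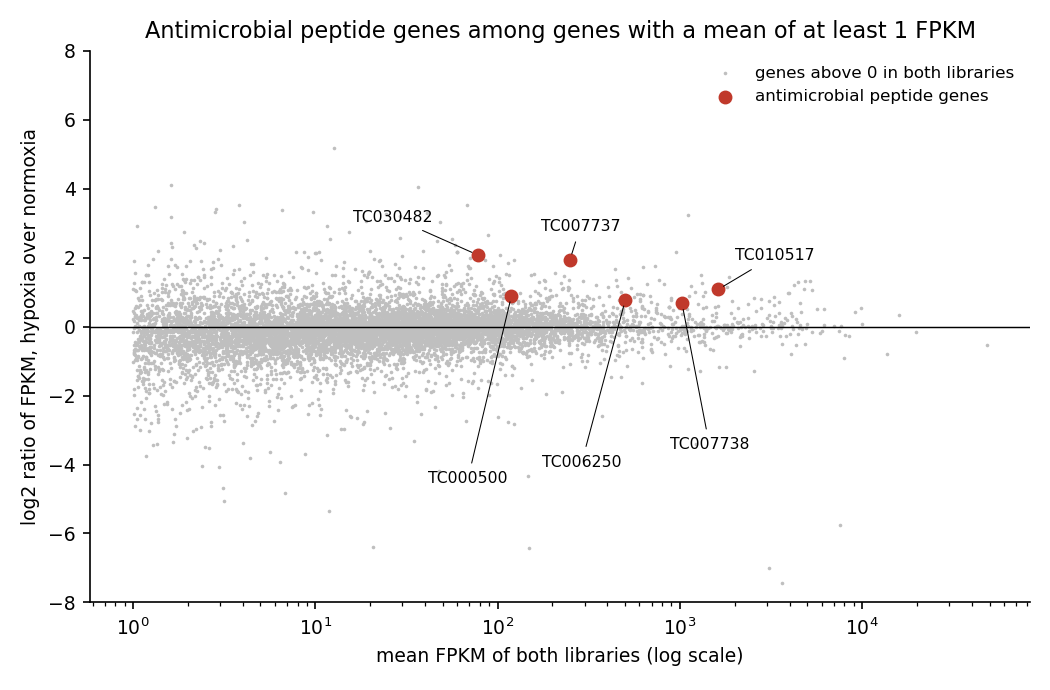
log2 ratio of hypoxia over normoxia against the mean FPKM of both libraries for the 9130 genes above the filter that have values over 0 in both (grey), with the 6 antimicrobial peptide genes in red. The 595 genes listed at 0 in 1 library are not drawn. The 6 red points run from a log2 ratio of 0.67 to 2.08, against a median of -0.10 over all genes above the filter.

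The 8 genes share a structure that did not itself enter their choice, though they were chosen as small peptides. Each has 2 exons in the reference, an intron of 45 to 58 bases and an exonic length of 240 to 498 bases, against a median length of 966 bases over all genes. Of the 17070 genes, 20.5% have 2 exons, 7.29% have 2 exons with an intron of up to 58 bases, and 2.82% have these and a length of up to 498 bases. The structure is not particular to the members. TC000501 and TC000499, the genes beside TC000500 and TC030482, also have 2 exons, with introns of 42 and 51 bases. The attacins lie within 15804 bases of ChLG4 on the same strand with no other reference gene between them, while the defensins lie on 3 linkage groups.

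The 3 reference genes on either side of each member came to 30 genes other than the members, of which 13 were above the filter. Of these 13, 0 were called higher and 1 lower, beside 7.42% called higher and 11.9% lower over all genes above the filter, so with so few genes the counts are near those shares. Their median log2 ratio was -0.35, against -0.10 over all genes above the filter. The one called lower was TC010516, 25674 bases from TC010517, with 90.3 FPKM in hypoxia and 136 FPKM in normoxia, a log2 ratio of -0.59 (-0.71 to -0.47). TC000501, 146 bases from TC000500 on the same strand, was at 4.91 FPKM in hypoxia and 6.44 FPKM in normoxia, and TC000499, 378 bases from TC030482, was listed at 0 in both. No assembled transcript joined a member to another gene in either library.

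Among other genes of the study's list whose annotation names a Toll receptor, a serpin or a serine protease, the direction was mostly the opposite one. Toll receptors carry the signal of the Toll pathway or, for several members of the family in *Drosophila*, act in development, serine proteases and the serpins that inhibit them stand upstream of Toll, and other serine proteases digest food. Of these 9 genes, 8 were called lower under hypoxia and 1 higher, beside 11.9% called lower and 7.42% higher over all genes above the filter. Their median log2 ratio was -1.07, against -0.10 over all genes above the filter. Tollo (TC004898) was at 2.35 FPKM in hypoxia and 5.92 FPKM in normoxia, and Toll-6 (TC004895) at 1.08 FPKM in hypoxia and 3.13 FPKM in normoxia, with log2 ratios of -1.30 and -1.45. Serpin peptidase inhibitor 7 (TC005740) was at 48.4 FPKM in hypoxia and 95.4 FPKM in normoxia, a log2 ratio of -0.98 (-1.17 to -0.79). Its value in normoxia includes 1 assembled transcript that joins it to another gene, and no such transcript is listed in hypoxia. The reference transcript alone was at 48.4 FPKM in hypoxia and 45.0 FPKM in normoxia. The call of the serpin as lower thus rests on that joining transcript. Serine protease P40 (TC002785) had the most negative log2 ratio of the 9, -2.63, with 27.7 FPKM in hypoxia against 173 FPKM in normoxia. The other serine proteases called lower were P53 (TC004635), H18 (TC000829), P13 (TC000547) and H164 (TC015670), with log2 ratios of -2.31, -1.07, -1.04 and -0.98 in this order. The one called higher was serine protease P96 (TC009602), with 912 FPKM in hypoxia against 578 FPKM in normoxia. By the reference transcript alone, 3 of the 9 were called lower (P13, P40 and P53) and 2 higher (P96 and H164), beside 18% of genes called lower and 15.1% higher by this measure. The reference transcripts of Toll-6, Tollo and H18 were listed at 0 in both libraries and so gave no ratio, that of H164 was listed at 0 in normoxia, and the serpin had a log2 ratio of 0.11. The study chose this list on these libraries, so its directions are no independent evidence.

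**Figure D4:**
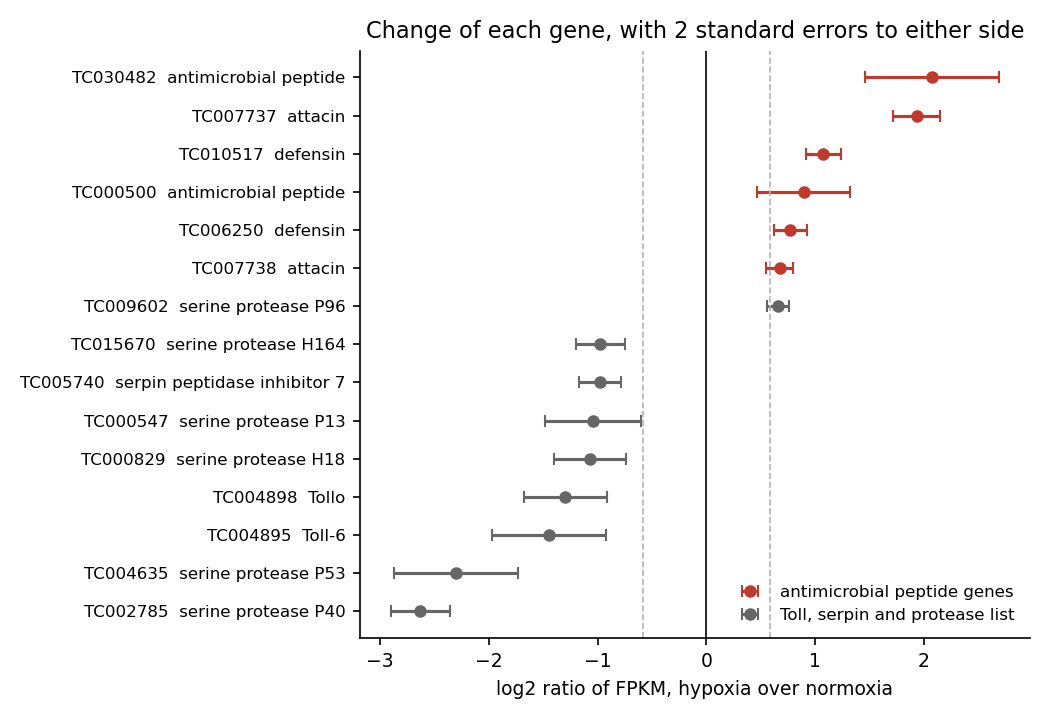
log2 ratio of FPKM, hypoxia over normoxia, with 2 standard errors to either side, for the 6 antimicrobial peptide genes with values (red) and the 9 genes annotated as Toll receptors, serpin or serine proteases (grey). Dashed lines mark a 1.5-fold difference. The red points run from 0.67 to 2.08 and the grey ones from -2.63 to 0.66.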

How the data were processed

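Trimming at Q20 and mapping to the BeetleBase genome were done by the authors. For each library they deposited the output of Cufflinks run around reference transcripts, in which every transcript carries FPKM with its interval and a coverage estimate. Not given in the sources used here are aligner, versions, genome build and annotation release. The deposited FPKM carry no read counts, so no count model was used.

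Of 7423 assembled transcripts in hypoxia and 7674 in normoxia, 6654 and 6895 were given to the gene with which they share the most exonic bases on their strand. The 500 and 502 without a strand entered no gene. For a gene, the interval half-widths of its transcripts were squared, summed and rooted, and this was read as 2 standard errors. For log2 ratios 0.1 FPKM was added to each value, so the changes of low genes come out too small, and genes needed a mean of 1 FPKM or more. FPKM were not rescaled. Setting the median, or the mean after trimming 30%, to 0 moves every log2 ratio by 0.10, upwards.

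Named were the 8 members, the 9 genes of the second list, and neighbours called in the opposite direction. Other neighbours were named after their values were seen. The members and lists were chosen with earlier results of these data known. Alternatives were pseudocounts of 0.01 and 1 FPKM, other filters, scalings, sums over transcripts and call rules. Giving transcripts without a strand to either strand, and using coverage in place of FPKM, were chosen after the data were seen, as were the counts by length and by level. The RefSeq gene table (icTriCast1.1) matched 0 of the 8 identifiers, so no sequence is shown. The calls were checked on values simulated from the levels of the normoxia library, with noise only from the intervals within each library. Of 100 genes changed 2-fold 79 were called, of 100 changed 4-fold 95, and of 8971 unchanged genes 15. The noise had the same width as the intervals that the call rule then used, so the few calls among unchanged genes follow from this setting. The simulation held no spread between larvae or libraries, so it cannot say how the calls fare against that spread. Python 3.11.15, numpy 2.4.6, pandas 2.3.3 and matplotlib 3.10.9 were used.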

Additional observations from a re-analysis of the deposited data

Results flagged for a closer look

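A single-exon assembled transcript without a strand, 239 bases long and outside the reference genes, lay 4747 bases from TC007737 (ChLG4, 105649 to 105887). It was at 17.2 FPKM (6.84 to 27.6) in hypoxia, and no overlapping transcript is listed in normoxia, so it is a signal in data that entered no gene. It is named here after its values were seen.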

How the results depend on the processing

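The log2 ratios of the 6 genes kept their sign and stayed within their ranges under each of the 13 alternatives for a value, from 0.89 to 1.01 for TC000500, 2.05 to 2.18 for TC030482, 1.93 to 2.04 for TC007737, 0.67 to 0.78 for TC007738, 0.75 to 0.88 for TC006250 and 1.07 to 1.18 for TC010517. Several of the 13 could not change a value. The filters lie far below the means of the 6. Other ways of summing over transcripts could act on TC010517 only, since the others have no assembled transcript. At a threshold of 2-fold, 3 of the members were called higher (TC030482, TC007737 and TC010517), against 4.44% of all genes, and under each other alternative for a call 6 were. Most of those other alternatives loosened the rule, raised every ratio or left the values of these genes unchanged. Such alternatives could not lower the count. For the 9 genes of the second list, 0 were higher and 6 lower at 2-fold (4.44% and 7.29% of all genes), and by the reference transcript alone 2 were higher and 3 lower (15.1% and 18% of all genes), with 3 of the 9 listed at 0 in both libraries. With transcripts that join genes left out, 1 of the 9 was higher and 7 were lower, against 790 and 1170 over all genes. The serpin, the only gene of the 9 with such a transcript, was then no longer called. Over all genes, 722 were called higher and 1154 lower. These counts were 432 and 709 at 2-fold, 1087 and 1813 without the intervals, 1223 higher by the reference transcript alone, and 896 and 948 after centring on the median. No paired analysis was possible because each condition has 1 library, and for the same reason no library could be left out. The intervals cover no spread between larvae. Whether the difference of any of the 6 genes lies outside that spread cannot be told, and that of TC007738, 1.59-fold, is the smallest.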
